A study of Solanum lycopersicum with 9 samples.

Results

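Ethylene receptors and CTR-type kinases were examined in red ripe tomato fruit in which an antisense construct silenced Asr1, the gene of a small protein named after abscisic acid, stress and ripening. The set comprised every probe set whose gene symbol in the platform annotation was ETR1, ETR2, ETR4, ETR5, ETR6, CTR1, CTR3 or CTR4. Each of the 8 genes was represented by 1 probe set, which made 8 of 10038 tested probe sets, of which 909 carried any gene symbol. The genes are 5 receptors and 3 kinases, and all 8 matched a tomato RefSeq gene by Entrez identifier.

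The arrays held fruit mesocarp of Solanum lycopersicum cv Money Maker in 3 groups of 3 pools each: wild type (WT), antisense line AS5 and antisense line AS17. Fruits were collected at the red ripe stage from greenhouse plants, and the labels describe pools of 2 fruits from 3 plants of each line. Per those labels, n counts pools, and silencing is represented by 2 lines only. The sources used here do not name the promoter of the construct. No probe set was named Asr1, so its level was not analysed here. Expression was a deposited log2 value per probe set and array, so a difference of 1 is a doubling, and the precision is limited by the number of arrays.

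As background, ethylene receptors sit in the membrane of the endoplasmic reticulum and are active when no hormone is bound. In that state they keep CTR kinases active, and the kinases hold back EIN2 and the EIN3-like transcription factors. Binding of ethylene turns the receptors off and releases the response, so receptors and CTR kinases act as negative regulators. In tomato, a climacteric fruit, ripening depends on this pathway, and part of the receptor genes are themselves induced as fruit ripens.

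The comparison of each silenced line with WT asks whether silencing of Asr1 goes with other transcript levels of this receptor and kinase module. All 8 transcripts were above the array background on all 9 arrays, and none of the 8 passed the test in any comparison. In AS5, measured changes ran from -0.18 for CTR4 to 0.46 for ETR6. In AS17 they ran from -0.50 for ETR5 to -0.01 for CTR1, so that all 8 were on the lower side of WT in the deposited values, as were 53.6% of all probe sets. CTR1 was on the higher side with median centring (0.050) and with quantile normalisation (0.027), and ETR1, ETR6 and CTR1 each turned with 1 array left out (up to 0.0061, 0.067 and 0.24). The clearest separation was that of CTR4, whose level was highest in the 3 WT pools, lower in the 3 AS5 pools and lowest in the 3 AS17 pools, with a difference of 0.26 between WT and the mean of both lines.

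In limma with Benjamini-Hochberg adjustment over all 10038 probe sets, 0 of 8 passed an adjusted p of 0.05 in AS5, where 0.379% of all probe sets passed. The count was 0 of 8 in AS17, against 1.34% of all probe sets, and 0 of 8 for the mean of both lines, against 1.28%. At an unadjusted p under 0.05, 0 of 8 were counted in AS5 (background 9.24%). In AS17 there were 2, ETR5 and CTR4 (background 17.3%), and for the mean of both lines 1, CTR4 (background 15.5%). The median measured change of the 8 was 0.06 in AS5, -0.17 in AS17 and -0.05 for the mean of both lines, beside 0.03, -0.02 and 0.0037 over all probe sets. Both lines were compared with the same 3 WT arrays.

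**Figure D1:**
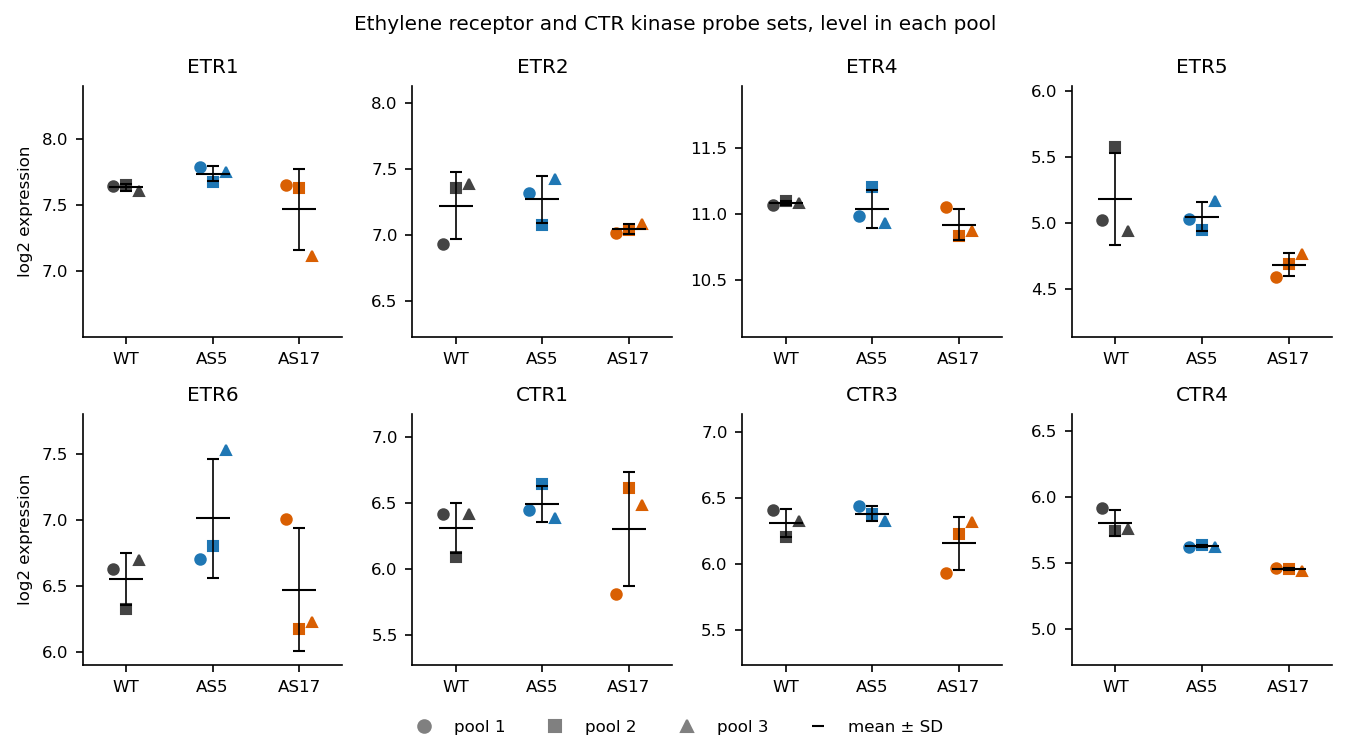
Deposited log2 expression of the 8 probe sets in each pool, with 1 panel per gene, line on the horizontal axis, the mean ± SD of 3 pools in black and axes of equal span. CTR4 separates into 3 levels (means of 5.81, 5.63 and 5.46), while ETR6 in AS5 pool 3 (7.53) and CTR1 in AS17 pool 1 (5.81) stand away from the other pools of their line.

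Among the receptors, ETR1 and ETR2 belong to the subfamily with a complete histidine kinase domain. The ETR1 transcript stood at 7.65, 7.66 and 7.61 in WT pools 1, 2 and 3, at 7.79, 7.68 and 7.75 in AS5, and at 7.65, 7.63 and 7.12 in AS17. The AS5 pools lay narrowly above all WT pools, AS17 pools 1 and 2 lay among the WT values, and AS17 pool 3 was the lowest of all 9. Its measured change was 0.10 (SE 0.15, adjusted p = 0.884) in AS5 and -0.17 (SE 0.15, adjusted p = 0.621) in AS17. Without AS17 pool 3, the AS17 value was 0.0061.

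ETR2 stood at 6.93, 7.35 and 7.38 in WT, at 7.32, 7.08 and 7.42 in AS5 and at 7.02, 7.04 and 7.09 in AS17. The 3 AS17 pools were close together (SD 0.04) and lay between the lowest WT pool and the others. The measured change was 0.05 (SE 0.15) in AS5 and -0.18 (SE 0.15) in AS17, and neither passed (adjusted p = 0.952 and 0.605). The AS17 value was -0.32 without WT pool 1 and -0.096 without WT pool 3, and with 1 array left out the AS5 value ran from -0.096 to 0.15. RefSeq gives the name ETR1 also as a synonym of the ETR2 gene, and the symbols used here are those of the platform annotation.

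ETR4, ETR5 and ETR6 form the subfamily with a diverged kinase domain. ETR4 is one of the receptor genes known to be induced during tomato ripening. Its level was 11.07, 11.10 and 11.08 in WT, 10.99, 11.20 and 10.93 in AS5, and 11.05, 10.84 and 10.87 in AS17. The 3 WT pools were nearly equal (SD 0.017), the AS5 pools lay on either side of them, and all AS17 pools were below them, pool 1 narrowly. ETR4 varied least of the 8 across all arrays, with a range of 0.37, wider than that of 9.99% of all probe sets. Its measured change was -0.04 (SE 0.11, adjusted p = 0.938) in AS5 and -0.17 (SE 0.11, adjusted p = 0.514) in AS17.

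ETR5 had the widest AS17 difference of the 8. It stood at 5.02, 5.58 and 4.94 in WT, at 5.03, 4.95 and 5.17 in AS5, and at 4.60, 4.69 and 4.77 in AS17. The AS17 pools did not overlap with either other group, whereas AS5 pools lay among the WT pools. The measured change was -0.50 in AS17 (SE 0.17, 95% confidence interval -0.88 to -0.11, unadjusted p = 0.0177, adjusted p = 0.185) and -0.13 in AS5 (SE 0.17, adjusted p = 0.867). WT pool 2 was high, and without it the values were -0.30 for AS17 and 0.067 for AS5.

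ETR6, a receptor gene also expressed in ripening fruit, was the most variable of the 8, with a range of 1.35 over the 9 arrays, wider than that of 86.5% of all probe sets. It was at 6.63, 6.33 and 6.70 in WT, at 6.70, 6.81 and 7.53 in AS5, and at 7.01, 6.18 and 6.23 in AS17. The AS5 pools were all above WT, pool 1 narrowly, and the AS17 pools lay on both sides of WT. The measured change was 0.46 in AS5 (SE 0.28, adjusted p = 0.668) and -0.08 in AS17 (SE 0.28, adjusted p = 0.922). Its highest values came from AS5 pool 3 and AS17 pool 1, and the AS5 value was 0.20 without AS5 pool 3.

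CTR kinases are Raf-like protein kinases that act directly below the receptors. The CTR1 probe set stood at 6.42, 6.09 and 6.42 in WT, at 6.45, 6.64 and 6.38 in AS5, and at 5.81, 6.61 and 6.48 in AS17. AS17 pool 1 was the lowest of all arrays, while AS17 pools 2 and 3 were above all WT pools, and the groups overlapped. Its measured change was 0.18 (SE 0.21, adjusted p = 0.846) in AS5 and -0.01 (SE 0.21, adjusted p = 0.991) in AS17, and the AS17 value was 0.24 without AS17 pool 1. In Affymetrix naming, the suffix of this probe set marks probes shared by more than 1 transcript, so near-identical transcripts may add to its level. RefSeq lists 5 transcripts of CTR1, 3 of CTR4 and 2 of CTR3, which these values do not separate.

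CTR3 was at 6.41, 6.20 and 6.33 in WT, at 6.44, 6.38 and 6.33 in AS5, and at 5.93, 6.23 and 6.31 in AS17. As for CTR1, AS17 pool 1 was the lowest array, and the other 8 arrays lay between 6.20 and 6.44. Measured changes were 0.07 (SE 0.13, adjusted p = 0.906) in AS5 and -0.15 (SE 0.13, adjusted p = 0.594) in AS17. The AS17 value was -0.040 without AS17 pool 1, and the AS5 value was 0.015 without WT pool 2.

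CTR4 was at 5.92, 5.74 and 5.76 in WT, at 5.62, 5.64 and 5.62 in AS5, and at 5.46, 5.46 and 5.45 in AS17. The 3 groups did not overlap, an order (WT above AS5 above AS17) that 71 of 10038 probe sets, or 0.707%, showed. Only this order, the one seen for CTR4, was counted, so the share with 3 separate groups in any order is larger or equal. The measured change was -0.18 (SE 0.10, adjusted p = 0.641) in AS5 and -0.35 (SE 0.10, unadjusted p = 0.0059, adjusted p = 0.124) in AS17. For the mean of both lines it was -0.26 (SE 0.08, 95% confidence interval -0.46 to -0.07, adjusted p = 0.184), or 1.20-fold lower. None of these changes passed the test. For a lower measured level in these bulk samples, fewer cells that express CTR4 and less CTR4 RNA per cell cannot be told apart.

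The SD of CTR4 was 0.097 in WT, 0.0073 in AS5 and 0.0089 in AS17 (n = 3 each). Its SD within groups was 0.06, lower than that of all but 1.31% of probe sets, and limma, which draws each variance towards the common one, used 0.12. Exactly equal deposited values occurred between arrays, and CTR4 was equal in AS5 pools 1 and 3, as were 208 of 10038 probe sets (2.07%). CTR1 was equal in WT pools 1 and 3, as were 3.45% of probe sets. CTR3 was equal in WT pool 3 and AS5 pool 3, as were 4.32%. The suffix of the CTR4 probe set marks alternative transcripts of 1 gene.

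**Figure D2:**
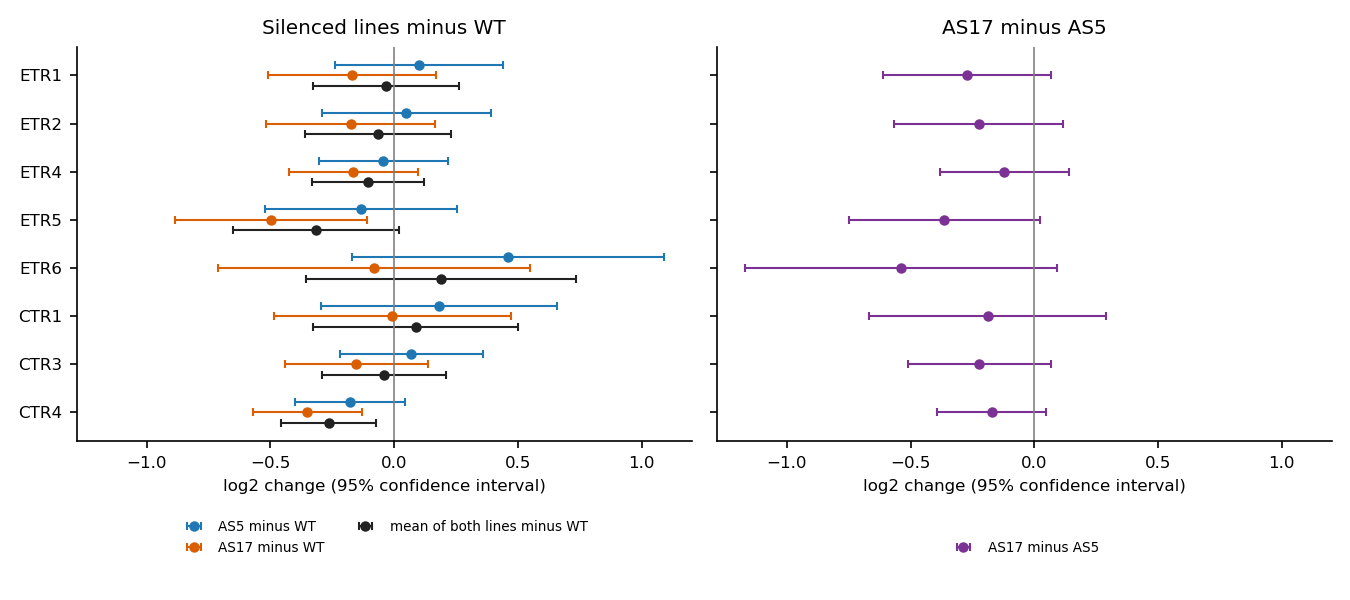
Measured log2 changes of the 8 genes with 95% confidence intervals from limma, on the left for AS5, AS17 and the mean of both lines against WT and on the right for AS17 minus AS5. On the left, the intervals of ETR5 in AS17 and of CTR4 in AS17 and for the mean of both lines lie below 0, with adjusted p of 0.185, 0.124 and 0.184, and on the right every interval includes 0.

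The intervals show which sizes of change were compatible with these arrays, and not what the adjusted test could detect. For the mean of both lines, the 95% intervals of all 8 genes lay between -0.65 and 0.74, which leaves out a 2-fold change in either direction for each single gene. The narrowest were those of CTR4 (above) and of ETR4, which ran from -0.33 to 0.12. In AS5, 7 of 8 intervals lay within a log2 change of 1, and the exception was ETR6, for which the upper end was 1.09. In AS17, all 8 did. For AS17 minus AS5, 7 of 8 did, and the lower end for ETR6 was -1.17. These intervals are for single genes and were not widened for the number of genes.

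Groups without overlap were also counted. In AS5, 2 of 8 genes (ETR1 and ETR6) were higher in every pool than in every WT pool, against 10% of all probe sets, and 1 (CTR4) was lower, against 6.93%. In AS17, 3 (ETR4, ETR5 and CTR4) were lower, against 12.5% of all probe sets, and 0 were higher, against 9.1%. With all 6 silenced pools together, 1 (CTR4) was lower, against 4.32%, and 0 were higher, against 4.73%. With 8 genes these shares are coarse, and they carry no test.

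AS17 was also compared with AS5 directly, which asks whether the lines differ in this module. The measured mean of all 8 genes was lower in AS17 than in AS5, by 0.12 (ETR4) to 0.54 (ETR6), while 60.9% of all probe sets had a lower AS17 mean. Of the 8, 4 (ETR1, ETR5, CTR3 and CTR4) were lower in every AS17 pool than in every AS5 pool, against 7.02% of all probe sets, and 0 were higher, against 1.24%. None of the 8 differences passed in limma (adjusted p from 0.83 to 0.949), 0 had an unadjusted p under 0.05 (background 5.89%), and of all probe sets 0 passed (0%). The median difference was -0.22 for the 8 and -0.05 over all probe sets. AS5 pool 3 had the highest median of all arrays, 5.47 against 5.24 to 5.33 for the others. With every array set to the same median, all 8 measured differences were negative, and the share of all probe sets was not counted there. The part of the array medians in these differences was not tested. CTR1 was the exception to the direction when arrays were left out, at 0.057 without AS17 pool 1, and 0.0049 without AS5 pool 3 as well. With 1 array left out, the difference ran from -0.81 to -0.28 for ETR6 (without AS17 pool 1 and without AS5 pool 3), from -0.19 to -0.041 for ETR4 (without AS17 pool 1 and without AS5 pool 2) and from -0.36 to -0.096 for ETR1 (without AS17 pool 1 and without AS17 pool 3).

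**Figure D3:**
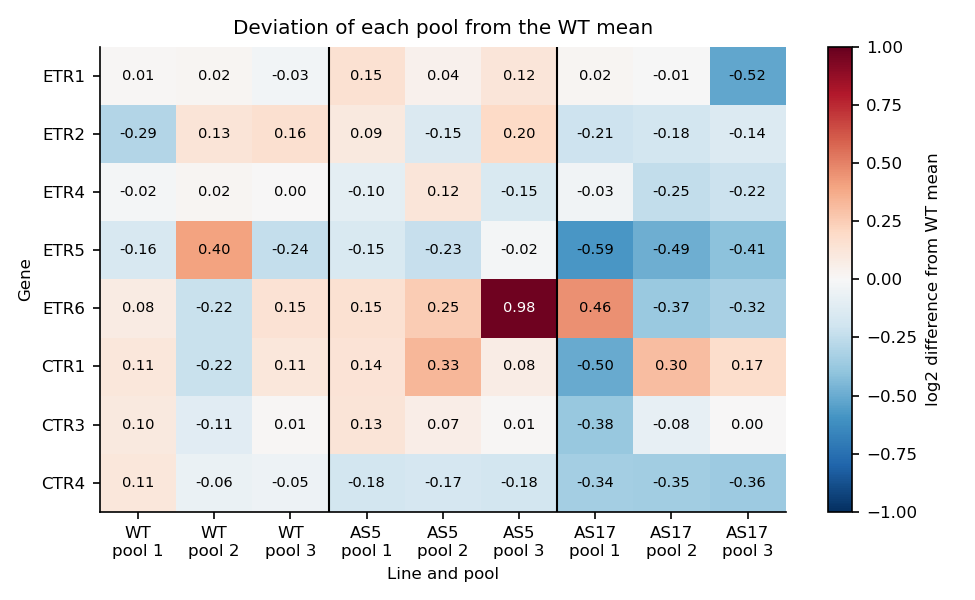
Difference of each pool from the WT mean, on the log2 scale, for the 8 genes (rows) in the 9 pools (columns), with red above and blue below the WT mean. The CTR4 row is uniform within each silenced line, from -0.18 to -0.17 in AS5 and from -0.36 to -0.34 in AS17, while ETR6 reaches 0.98 in AS5 pool 3 and CTR1 reaches -0.50 in AS17 pool 1.

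Individual pools contributed unevenly. AS17 pool 1 held the lowest value of 3 of the 8 genes (ETR5, CTR1 and CTR3), AS17 pools 2 and 3 held that of 2 each, WT pool 1 held that of ETR2, and no AS5 pool held any. The highest values came from AS5 pools for 6 genes and from WT pools for 2. AS5 pool 3 and AS17 pool 1 stood apart from the other arrays on the first principal component over all probe sets, at 33.4 and 35.0 against -27.2 to 12.5. The difference between 3′ and 5′ probe sets of gapdh, a sign of RNA quality, was 0.62 and 0.55 in these arrays and 0.83 to 1.06 in the others. For ubiquitin it was 1.12 and 1.36 against 1.41 to 1.75. For actin it was 0.48 in AS5 pool 3, below the 0.73 to 1.10 of the other 7 arrays, and 1.08 in AS17 pool 1, within that range. The part of any of these measures in the levels of ETR6, CTR1 and CTR3 was not tested. With both arrays left out, the change for the mean of both lines was -0.07 for ETR6, 0.24 for CTR1 and 0.03 for CTR3, and CTR4 stayed at -0.27.

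Correlations over the 9 arrays, given as descriptions, were low for most pairs of the 8 genes. Over the 28 pairs, the median Pearson r was 0.22, and 22 were above 0. CTR1 and CTR3, both kinases and both lowest in AS17 pool 1, had the highest value (r = 0.80, or 0.88 for deviations from group means). Both values include that pool, which differed from the WT mean by -0.50 for CTR1 and -0.38 for CTR3. The r of this pair without it was not computed. Next came ETR2 and ETR5 (r = 0.61, or 0.44 within groups), then ETR5 and CTR4 (r = 0.61, or -0.48 within groups). For the last pair, r thus had opposite signs over all arrays and within groups. Within groups, the median over the pairs was -0.22, and deviations from a mean of only 3 pools are bound to each other.

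Among 606 other named genes above background on at least 5 arrays, the profile most like that of CTR4 was NP24-I, an osmotin-type defence protein (r = 0.95, or 0.41 within groups), followed by LOC543912 (r = 0.95, or 0.77 within groups). NP24-I stood at 11.89 in WT, 10.66 in AS5 and 9.85 in AS17, the same order of lines as CTR4 over a wider span. ETR4 was most like ER24, a gene first found as ethylene-responsive in tomato fruit (r = 0.82), and cpk1, a calcium-dependent protein kinase (r = 0.78). ETR6 was most like HT2, a hexose transporter, and ER66, another ethylene-responsive gene (both r = 0.93). HT2 was near background, at a WT mean of 1.63.

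ETR1 was most like the small heat shock protein HSP17-6 (r = 0.95) and LOC544026 (r = 0.94), and without the 2 arrays farthest from its median these were 0.82 and 0.27. FESOD, an iron superoxide dismutase, was nearest to ETR2 (r = 0.86) and to ETR5 (r = 0.87). The next were profilin, an actin-binding protein, for ETR2 (r = 0.85) and CITRX, a thioredoxin, for ETR5 (r = 0.86). CTR1 was most like eIF-5A3, a translation factor, and GABA-TP3, a GABA transaminase (both r = 0.89). CTR3 was most like the fructokinase FRK1 (r = 0.88) and LOC543567 (r = 0.87), which was near background at a WT mean of 2.18, and without the 2 arrays farthest from the CTR3 median these were 0.69 and 0.30. For the other 6 genes, the same r without 2 arrays was 0.61 to 0.95. Each of these values is also the one that chose the gene, and all share the same 9 arrays.

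The other ethylene genes of the list numbered 31, and in limma 0 of them passed in either line or for the mean of both lines, with 2, 6 and 5 at an unadjusted p under 0.05. Of all probe sets, 0.379%, 1.34% and 1.28% passed in these comparisons, and 9.24%, 17.3% and 15.5% had an unadjusted p under 0.05. Their median measured change was 0.04 for the mean of both lines, and it includes genes at background, which are named below. The nearest relative of the receptor set was LOC544279, which has the synonym ETR3 and is the receptor altered in the Never-ripe mutant. It stood at 10.56, 10.61 and 10.43 in WT, 10.37, 10.52 and 10.16 in AS5, and 10.11, 10.36 and 9.72 in AS17. All AS17 pools were below all WT pools, as for 12.5% of all probe sets, and AS5 overlapped with WT. Measured changes of LOC544279 were -0.18 in AS5 (adjusted p = 0.813) and -0.47 in AS17 (adjusted p = 0.21), and the adjusted p was 0.336 for the mean of both lines. TCTR2, a kinase related to CTR1 that the listed symbol CTR2 did not match and that was added after its values were seen, was at 7.14 ± 0.10 in WT, 7.13 ± 0.02 in AS5 and 6.70 ± 0.17 in AS17 (SD, n = 3 each). Its AS17 change of -0.44 did not pass (adjusted p = 0.112), nor did its difference of -0.43 between the lines (adjusted p = 0.764).

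Below the kinases, the 5 genes EIN2 and EIL1 to EIL4 had measured changes from -0.11 (EIN2) to 0.04 (EIL1) for the mean of both lines, none past the test. Of 13 synthesis genes, 0 passed and 3 were higher at an unadjusted p under 0.05, which 15.5% of all probe sets had in either direction. They were ACO6, an ethylene-forming oxidase (1.36, SE 0.30, adjusted p = 0.081), ACS2, a ripening-associated ACC synthase (1.10, SE 0.30, adjusted p = 0.131), and SAM3, an S-adenosylmethionine synthetase (0.79, SE 0.29, adjusted p = 0.24). These are the 3 synthesis genes with the smallest p, and each was higher in all 6 silenced pools than in all WT pools, as were 4.73% of all probe sets. The other 2 probe sets of ACO6 overlapped between WT and silenced pools, with measured changes of 0.93 and 1.16 (adjusted p = 0.192 and 0.146). Among the synthesis genes, ACS1A, ACS3, ACS5, ACS7 and ACS8 were above background on 0 arrays and ACS6 on 2, so a change in them could be missed. Of 11 response factors, 0 passed and 2 were lower at an unadjusted p under 0.05 (15.5% of all probe sets in either direction): LOC606712, with the synonym TERF1 (-1.19, SE 0.38, adjusted p = 0.185), and ERF4 (-0.90, SE 0.31, adjusted p = 0.215). The third by p, EREB, was at background on all arrays. E8, an ethylene-regulated ripening gene, had a measured change of 0.24 (SE 0.11, adjusted p = 0.336).

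**Figure D4:**
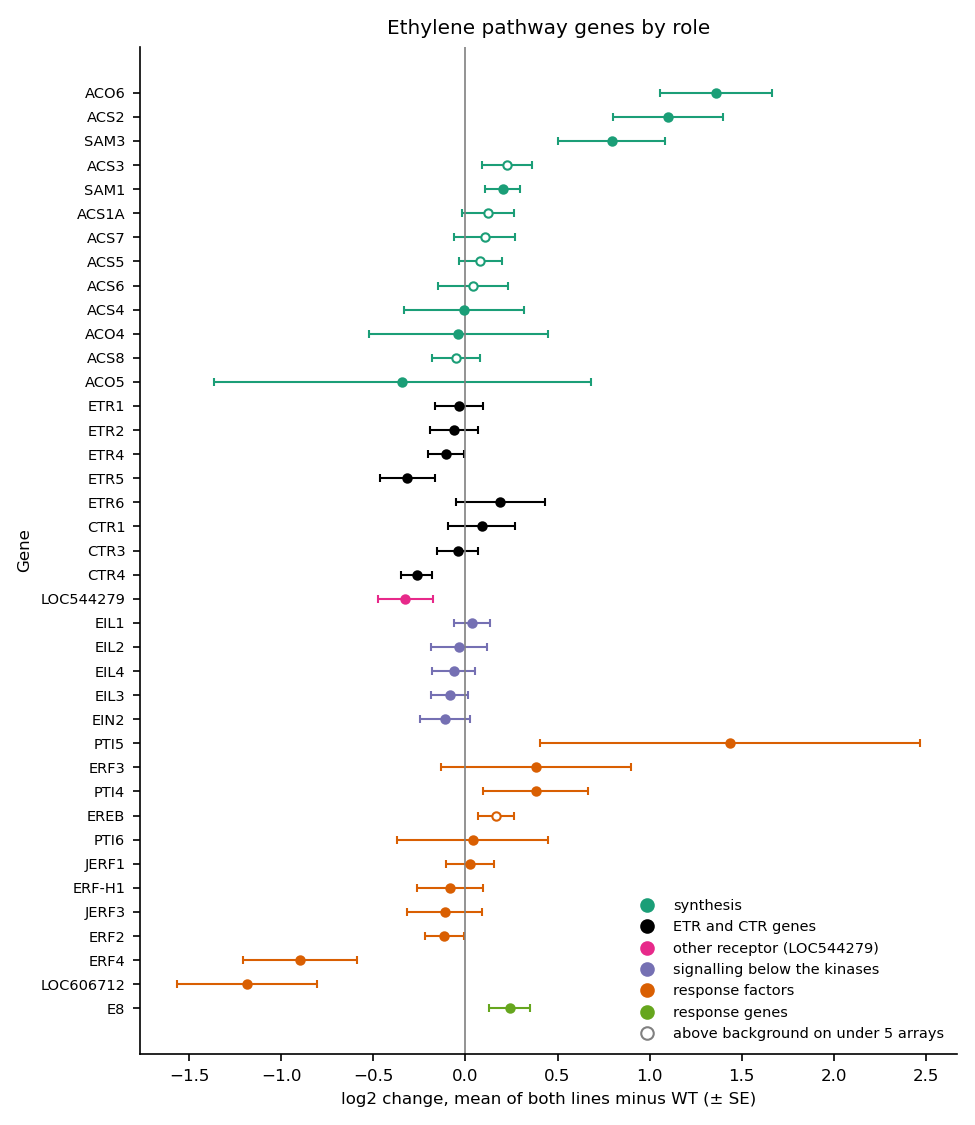
Measured log2 change of both lines (mean) against WT (± SE from limma) for the 8 receptor and kinase genes in black and 31 other ethylene genes coloured by role, with open points for genes above background on under 5 arrays. None passed the test, and the receptor and kinase values lie between -0.31 and 0.19, while those of synthesis genes and response factors run from -1.19 to 1.43. The value of 1.43 is that of PTI5 (SE 1.03). PTI5 stood at 5.34 in AS5 pool 3 and 5.56 in AS17 pool 1, and near background, at 1.37 to 2.16, in the other pools.

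As a check of the labelled tissue, 11 of 16 ripe fruit markers had a named probe set, and all 11 were above background on all arrays, with means from 6.79 to 12.1. Of 5 measured green tissue genes, CAB5 was near background (1.13 in WT), 3 had means well above it, and PSBR stood at 10.4 in WT. The 1 epidermis gene measured, LE16, was near background, and 0 of 7 seed genes had a named probe set. The mean log2 level of the ripe fruit markers was 9.56 to 9.74 in WT, 9.35 to 9.78 in AS5 and 9.52 to 10.1 in AS17, and the groups overlapped. Single markers did separate, in both directions, and those given here were picked by their values. Cel2 was at least 7.94 in AS17 and at most 7.29 in WT (9.1% of all probe sets were higher without overlap in AS17). Its AS5 pools, at 6.51 to 7.86, overlapped with WT. ACS2 was higher in every silenced pool than in WT, as were 4.73% of all probe sets. In contrast, loxC was at most 6.42 in AS5 and at least 6.81 in WT (6.93% of all probe sets were lower without overlap in AS5). Its AS17 pools, at 5.73 to 7.39, overlapped with WT. The Psy1 probe sets differed from each other. The brightest, used for the mean, had group means of 12.12 in WT, 12.06 in AS5 and 12.00 in AS17. A dimmer one, not used for the mean, had group means of 5.36, 5.29 and 5.21. Another dimmer one, also not used, was at most 2.37 in WT, at least 5.02 in AS5 and at least 4.33 in AS17.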

How the data were processed

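The deposited values were log2 expression values, and RMA is named per the submitters' processing notes. The sources used here give no version or settings. The values were used without further scaling. The 171 control probe sets were left out of 10209, and the background of an array was the 95th percentile of its 63 reporter-gene controls, between 1.41 and 1.98. A limma model (version 3.58.1, R 4.3.3, lmFit and eBayes) had 1 mean per group over 9 arrays, with Benjamini-Hochberg adjustment within a contrast and a threshold of 0.05. Adjusted p-values come from it unless an alternative is named. SE and 95% intervals are limma's. The code was tested on simulated data. The members, the lists and the apart arrays were chosen with earlier results of these data known. Every member was named, and of other ethylene genes up to 3 per role with the smallest p. List members were matched by symbol or unambiguous synonym, with the brightest probe set per gene. Likeness was Pearson's r over 9 arrays, with the 2 highest genes given. Alternatives covered centring, quantile normalisation, background filters, variance models, array weights, a block, 2-group fits, an adjusted p of 0.1 and left-out arrays. No sequences or coordinates were used. Arrays correlated at 0.976 to 0.996. Plots used matplotlib 3.10.9 (Python 3.11.15).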

Additional observations from a re-analysis of the deposited data

How the results depend on the processing

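None of the 8 genes passed in any of the 4 contrasts under any of the 20 alternatives. The smallest adjusted p over the alternatives were 0.0568 and 0.0793, for CTR4 with array weights for the mean of both lines and in AS17. The CTR4 change for the mean of both lines ran from -0.30 to -0.21 and in AS17 from -0.38 to -0.29, and ETR5 in AS17 from -0.62 to -0.30. The number of all probe sets that passed for the mean of both lines ran from 27 to 556. The block on pool number gave 0 of 8 genes and an adjusted p of 0.264 for CTR4 for the mean of both lines. The labels do not state that pool numbers are shared across lines, so the numbers were not taken as pairs. Deviations of same-numbered pools correlated at -0.38 to 0.55. Those of differently numbered pools were not computed, so these values do not decide whether pools were paired.

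Of 32 changes (8 genes in 4 contrasts), 20 kept their sign under all alternatives and 12 did not, none of which passed the test on either side. With 1 array left out, the ranges were as follows. In AS5, ETR2 ran from -0.096 to 0.15, ETR4 from -0.13 to 0.0097 and ETR5 from -0.25 to 0.067. In AS17, ETR1 ran from -0.26 to 0.0061, ETR6 from -0.35 to 0.067 and CTR1 from -0.16 to 0.24. For the mean of both lines, ETR1 ran from -0.080 to 0.054, ETR2 from -0.21 to 0.017, CTR1 from -0.023 to 0.21 and CTR3 from -0.096 to 0.015. CTR1 in AS17 minus AS5 ran from -0.35 to 0.057. Without both AS5 pool 3 and AS17 pool 1, the values were -0.026 for ETR2 and 0.0097 for ETR4 in AS5, 0.24 for CTR1 in AS17, -0.073 for ETR6 and 0.029 for CTR3 for the mean of both lines, and 0.0049 for CTR1 in AS17 minus AS5. Array weights gave 0.042 for ETR4 in AS5. CTR1 in AS17 was 0.050 with median centring, 0.027 with quantile normalisation and 0.066 with array weights. The cause of these sign changes was not tested. Precision is limited by 3 pools per group.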
